A study of Mus musculus with 26 samples.

Results

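The genes described here encode receptors that couple to G proteins: the muscarinic receptors Chrm1 and Chrm4, the cannabinoid receptor Cnr1, the orphan receptor Gpr6 and the metabotropic glutamate receptors Grm3, Grm4, Grm5 and Grm7. Apart from Gpr6, which was listed with them, they were chosen by family, as receptors for acetylcholine, endocannabinoids, opioids and glutamate. Of the 9 chosen, 8 are listed in each of the 3 deposited tables. The mu opioid receptor gene Oprm1 is in none of them and was not analysed here.

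The study sequenced ribosome footprints and RNA of the striatum (caudate putamen) of C57BL/6 mice labelled as 3 months old (3 to 4 months in the methods). Each library came from a pool of 3 mice of mixed sex. GS LRRK2 TG mice carried a G2019S LRRK2 transgene and GS/DA LRRK2 TG mice a G2019S/D1994A transgene, whose product lacks kinase activity; both were Tet-off transgenes under a CaMKII-tTA driver, held off with doxycycline until weaning. Their control was by label non-TG mice for both, and LRRK2 KO mice were set against WT mice. The driver is active in forebrain excitatory neurons and spiny neurons, so a bulk sample mixes cells with and without the transgene.

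As background, receptors coupled to Gq raise calcium through phospholipase C, whereas those coupled to Gi/o inhibit adenylyl cyclase and, at terminals, calcium channels. In the striatum, spiny projection neurons carry most of these receptors, and glutamate, acetylcholine and endocannabinoids act through them on the plasticity of cortical inputs. Gpr6 signals through Gs without an added ligand and marks spiny neurons of the indirect pathway.

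The striatal label was checked against markers of spiny neurons, which carry most of these receptors. All 7 markers on that list are present in each table, and Ppp1r1b was the most abundant, with a mean of 39026 normalized RNA-Seq reads in the non-TG control of the GS LRRK2 TG table and 14352 in WT. None of the 4 endothelial and mural markers is listed, and Ttr is the only 1 of 4 choroid plexus markers listed. Lrrk2 itself had 2524 and 5186 footprinting reads in non-TG control and GS LRRK2 TG, 1335 and 6017 in non-TG control and GS/DA LRRK2 TG, and 545 and 126 in WT and LRRK2 KO, so the footprinting columns of each table carry the labelled direction. The RNA-Seq means of Lrrk2 did not do so in the transgenic tables, with 2105 and 1882 in non-TG control and GS LRRK2 TG and 2897 and 2721 in non-TG control and GS/DA LRRK2 TG; in WT and LRRK2 KO they were 1006 and 347. Why the assays differ for Lrrk2 was not tested, and receptor values from RNA-Seq of the transgenic tables rest on columns that did not show the labelled direction for Lrrk2.

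The tables hold 1 mean of normalized reads per group and assay, a signal without an SD. For 10 of these 12 columns at least 98.5% of the means could be split into the reads of 2 libraries, and these are named A and B. Reads given for a gene or a list of genes, above and below, are normalized reads and not raw counts. The labels list 3 libraries of non-TG control in each assay and 3 striatal footprinting libraries each of WT and LRRK2 KO. A figure legend of the paper states that 2 independent results were joined in DESeq. The paper's Results describe further footprinting of LRRK2 KO striatum and ventral midbrain as additional experiments. Columns of 2 libraries match that legend, but no label or header says which non-TG control libraries lie behind the receptor values of each transgenic table. In the GS/DA LRRK2 TG and LRRK2 KO tables, A in both genotypes, or B in both, are libraries that deviate alike, a batch read from the values and not from the labels. The 2 libraries of a group differ widely in RNA-Seq of the transgenic tables, where the SD of log2(A/B) over transcripts was 1.48 in non-TG control, 1.74 in GS/DA LRRK2 TG and 1.75 in GS LRRK2 TG, and where log2(A/B) followed the GC content of the coding sequence (CDS) with a Spearman correlation from 0.776 to 0.805. The 4 receptors with a CDS GC content from 57.0% to 61.7% (Chrm4, Chrm1, Grm4 and Gpr6) were high in A, and the 4 from 48.4% to 51.8% (Grm3, Grm7, Grm5 and Cnr1) high in B. Library values of the non-TG control in the GS LRRK2 TG table were not recovered, and that control is given as its mean alone.

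**Figure D1:**
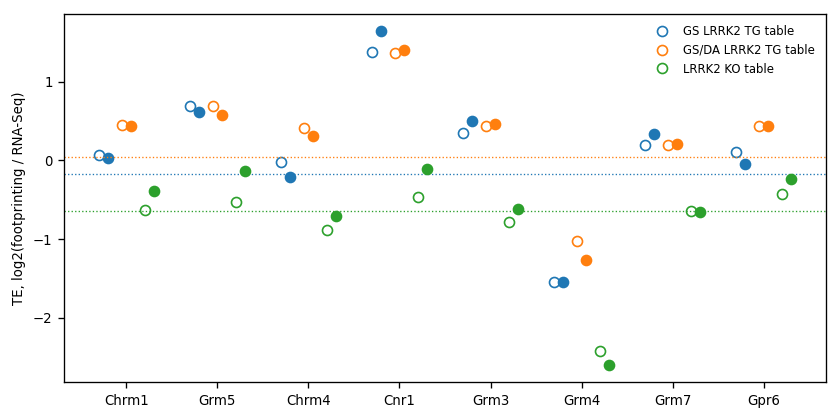
Translation efficiency of each receptor in control (open) and genotype (filled) of each table. Dotted lines give the median over all transcripts of the control of that table.

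Translation efficiency (TE) is the log2 ratio of footprinting to RNA-Seq. By group means, Cnr1 had the highest TE of the receptors in the control of the transgenic tables, 1.38 for GS LRRK2 TG and 1.36 for GS/DA LRRK2 TG, above 98.0% and 96.0% of transcripts. In WT the TE of Cnr1 was -0.47, above 61.3% of transcripts and below the value of -0.43 of Gpr6. Grm4 had the lowest TE of the receptors in each table's control, at -1.54, -1.02 and -2.42, above 6.53%, 11.1% and 2.56% of transcripts. TE of the other receptors in the non-TG control of the GS/DA LRRK2 TG table lay between 0.19 for Grm7 and 0.69 for Grm5, and all lay above the median of 0.040 over all transcripts. This order depends on the RNA-Seq library, as values with single libraries, computed after seeing the data, show for that control. With RNA-Seq library A alone Grm5 had the highest TE, 2.40, beside 2.01 for Cnr1, and Grm4 the lowest, -1.83. With RNA-Seq library B alone Chrm1 had the highest TE, 2.63, and Cnr1, at 0.92, was below Chrm1, Chrm4, Gpr6 and Grm4. The TE of Grm4 was 1.03 there, above that of Cnr1, Grm3, Grm5 and Grm7, and Grm7 had the lowest, -0.31. With either footprinting library alone, Cnr1 stayed the highest and Grm4 the lowest. In WT, Grm4 had the lowest TE with each of the 4 libraries alone, whereas the highest was Cnr1 with library A of either assay and Gpr6 with library B.

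Levels between receptors were compared per kb of CDS in that same control. Footprinting per kb was 2720 for Cnr1, 1771 for Chrm1, 1757 for Gpr6, 1460 for Chrm4, 1302 for Grm5, 744 for Grm3, 360 for Grm7 and 228 for Grm4. RNA-Seq per kb was 1308 for Gpr6, 1296 for Chrm1, 1102 for Chrm4, 1057 for Cnr1, 805 for Grm5, 547 for Grm3, 461 for Grm4 and 316 for Grm7. Cnr1 thus stood above the other receptors by footprinting and below 3 of them by RNA-Seq, and the order of Grm4 and Grm7 was turned between the assays. By library, footprinting per kb overlapped between the neighbours Chrm1 and Gpr6, Gpr6 and Chrm4, and Chrm4 and Grm5, and between no other receptors next to each other in that order. In RNA-Seq each receptor overlapped with the next.

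A TE difference, genotype minus control, was called up or down where its z score over all transcripts of a table passed 1.5 or -1.5. For GS LRRK2 TG, 0 of 8 receptors were up and 0 down, where 8.01% of transcripts were up and 3.91% down. For GS/DA LRRK2 TG, 0 of 8 were up and 0 down, beside 3.65% and 7.36% of transcripts. For LRRK2 KO, 0 of 8 were up and 0 down, beside 6.23% and 6.02%. The largest z scores in size among the receptors were -1.14 for Chrm4 in GS LRRK2 TG, -1.01 for Grm4 in GS/DA LRRK2 TG and 1.40 for Grm5 in LRRK2 KO. These counts of 0 rest on both libraries of a group. Each count below stands with the share of all transcripts called the same way without that library. In GS/DA LRRK2 TG and LRRK2 KO, leaving out a library sets both batches of 1 group against 1 batch of the other. Genotype and batch therefore cannot be told apart in those counts. Without LRRK2 KO footprinting library A 5 receptors were up (Chrm1, Chrm4, Cnr1, Grm3 and Grm5; 7.73% of transcripts), without WT footprinting library B 4 (Chrm1, Chrm4, Gpr6 and Grm5; 8.82%) and without LRRK2 KO RNA-Seq library A 3 (Chrm1, Chrm4 and Gpr6; 6.48%). In the other direction, 3 receptors were down without LRRK2 KO footprinting library B (Chrm4, Grm3 and Grm4; 8.67%), 2 without WT RNA-Seq library A (Chrm1 and Gpr6; 6.54%) and 1 without WT footprinting library A (Grm4; 6.77%). Chrm1, Chrm4, Gpr6 and Grm3 were thus called in opposite directions in LRRK2 KO, depending on the library left out. With the same batch kept in both genotypes, only Chrm1 was called in LRRK2 KO. It was up with footprinting batch A and RNA-Seq batch B (5.86% of transcripts). In GS/DA LRRK2 TG, such single batches gave Cnr1 up (7.68%) or Gpr6 up (3.97%) and no receptor down. For GS/DA LRRK2 TG, 4 receptors were up without its RNA-Seq library A (Chrm1, Chrm4, Gpr6 and Grm4; 7.51%) and 1 without its RNA-Seq library B (Grm5; 8.20%), while 3 were down without non-TG control RNA-Seq library A (Chrm1, Chrm4 and Grm4; 8.39%), 1 without non-TG control RNA-Seq library B (Grm5; 8.99%) and 1 without GS/DA LRRK2 TG footprinting library A (Grm4; 4.84%). For GS LRRK2 TG, 3 were up (Chrm1, Chrm4 and Grm4; 8.45%) and 1 down (Grm5; 1.64%) without its RNA-Seq library A, 1 up without its RNA-Seq library B (Grm5; 9.27%), 1 up without its footprinting library A (Cnr1; 4.68%) and 2 down without its footprinting library B (Chrm4 and Gpr6; 4.45%).

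**Figure D2:**
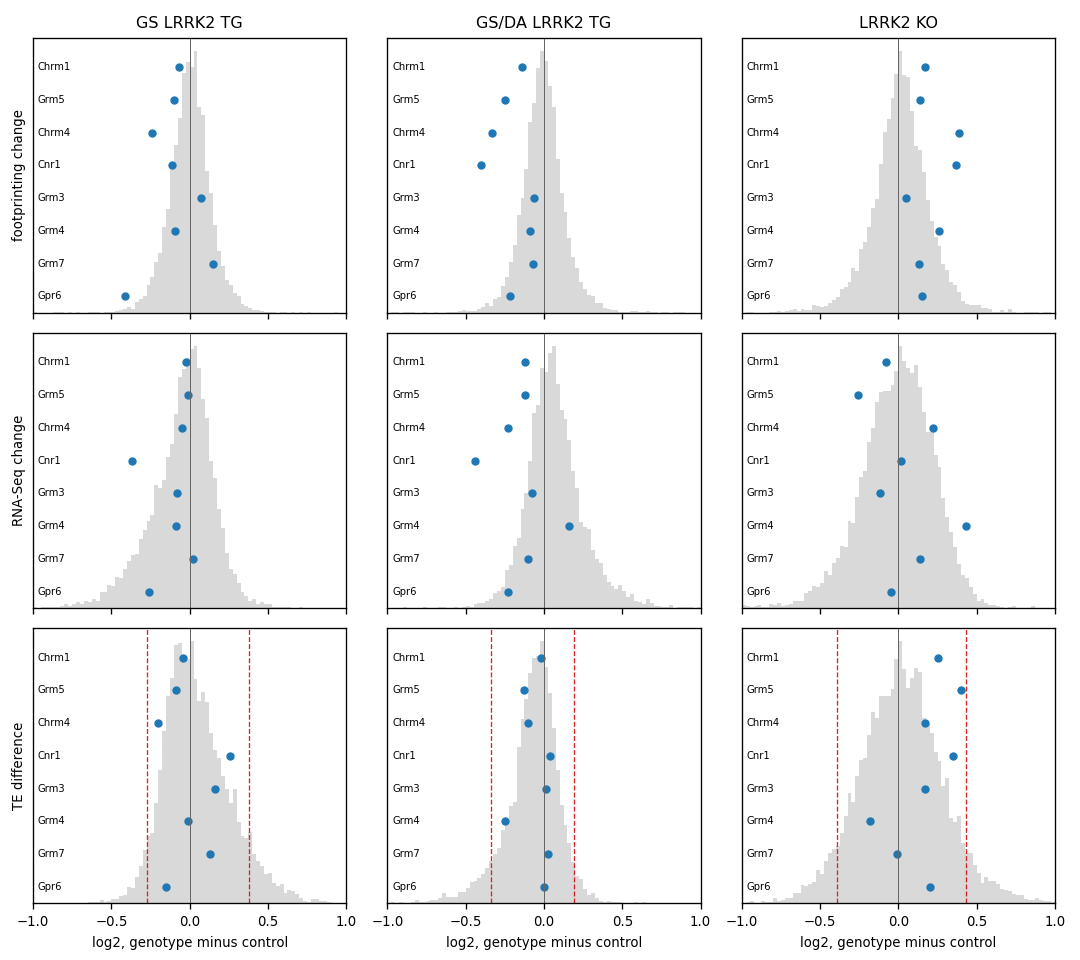
Footprinting and RNA-Seq changes and TE differences of the receptors (points) over the distribution of all transcripts of a table (grey, scaled to its peak). Dashed lines mark the TE differences at z scores of 1.5 and -1.5.

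The libraries recovered for both genotypes allowed a test with limma in the GS/DA LRRK2 TG and LRRK2 KO tables, with p adjusted by Benjamini-Hochberg over all transcripts fitted. In GS/DA LRRK2 TG 0 of 8 receptors had an adjusted p under 0.05 for footprinting, RNA-Seq or TE, beside 0%, 0% and 0% of 8397 transcripts. In LRRK2 KO the count was likewise 0 of 8 in each, beside 0%, 0% and 0% of 9539 transcripts. At an unadjusted p under 0.05, limma counted 0 receptors in each of the 6, and 3, 2 and 0 transcripts for footprinting, RNA-Seq and TE in GS/DA LRRK2 TG and 17, 9 and 4 in LRRK2 KO. Lrrk2 itself was not called after adjustment either. Its footprinting change in this limma fit was -2.00 ± 0.41 in LRRK2 KO (unadjusted p = 0.00190) and 2.14 ± 1.44 in GS/DA LRRK2 TG (unadjusted p = 0.189). A count of 0 in this fit therefore does not show that no receptor differed. With voom weights no receptor and no transcript passed the adjusted threshold either, and 2, 0 and 0, and 13, 7 and 1 transcripts passed the unadjusted one. Each transcript has 1 estimate of spread over both assays, so the standard error of a receptor's footprinting change held the spread of its RNA-Seq libraries: for Chrm1 in GS/DA LRRK2 TG it was 1.23 without a batch term and 0.10 with the library batch as a covariate. With that covariate 2 receptors, Cnr1 and Chrm4, had an unadjusted p under 0.05 in GS/DA LRRK2 TG for both footprinting and RNA-Seq, beside 3.33% and 4.64% of transcripts, and none had an adjusted p under 0.998. In LRRK2 KO the same limma fit counted 0 receptors at an unadjusted p under 0.05, beside 218, 462 and 186 transcripts for footprinting, RNA-Seq and TE. After adjustment it called 5 transcripts there for footprinting, 4 for RNA-Seq and 0 for TE, none of them a receptor. Over all alternatives, the adjusted p of a receptor ran from 0.544 to 1.00 in GS/DA LRRK2 TG and from 0.911 to 1.00 in LRRK2 KO.

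Chrm1 and Grm5 couple to Gq. Chrm1, which excites spiny neurons in response to acetylcholine, had 2698 and 2202 normalized footprinting reads in non-TG control libraries A and B and 2390 and 2058 in GS/DA LRRK2 TG. Each GS/DA LRRK2 TG library was below the control library of its batch, and the groups overlapped; the means gave a log2 change of -0.14. Its RNA-Seq reads were 3189 and 397 in non-TG control and 2911 and 395 in GS/DA LRRK2 TG. A stood far above B in both genotypes, so the change of -0.12 was small beside the gap between libraries. For GS LRRK2 TG, the Chrm1 footprinting mean of the control was 1858, and the GS LRRK2 TG libraries had 1601 and 1947. The control mean lay between these libraries, as it did in RNA-Seq, where it was 1766 and the libraries had 3090 and 381. Changes of the means were -0.067 in footprinting, -0.025 in RNA-Seq and -0.041 in TE.

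In WT, Chrm1 had 237 and 731 footprinting reads, and in LRRK2 KO 316 and 770. Both LRRK2 KO libraries were above the WT library of their batch, by 0.41 in A and 0.075 in B, and the groups overlapped. RNA-Seq reads of Chrm1 were 1069 and 434 in WT and 1003 and 418 in LRRK2 KO, lower in both batches. The TE difference of Chrm1 was 0.25 in LRRK2 KO, from a footprinting change of 0.17 and an RNA-Seq change of -0.080.

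Grm5, the group I glutamate receptor that drives calcium release and endocannabinoid synthesis in spiny neurons, had 5114 and 4294 footprinting reads in non-TG control and 4312 and 3613 in GS/DA LRRK2 TG. The change was -0.25 in batch A and -0.25 in batch B, and the groups overlapped because the higher GS/DA LRRK2 TG library passed the lower control library. RNA-Seq of Grm5 gave 893 and 4922 in non-TG control and 597 and 4745 in GS/DA LRRK2 TG. Here B was the high library of both genotypes, the reverse of Chrm1, and the change was -0.58 in A and -0.053 in B. In the GS LRRK2 TG table the footprinting mean of the control was 3444 and the libraries of GS LRRK2 TG had 2977 and 3462. RNA-Seq reads were 2130 in the control mean and 274 and 3947 in GS LRRK2 TG, the widest gap between 2 libraries among the receptors. The changes of the means of Grm5 in GS LRRK2 TG were -0.10 in footprinting and -0.013 in RNA-Seq.

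In the LRRK2 KO table, footprinting reads of Grm5 were 492 and 1104 in WT and 446 and 1310 in LRRK2 KO. The genotype library was lower in batch A and higher in batch B, and the change of the means was 0.14. RNA-Seq reads were 1432 and 878 in WT and 1062 and 860 in LRRK2 KO, lower in both batches, with a change of -0.26. Grm5 had the highest TE difference of the receptors in that table, 0.40, where TE up began at 0.43. With a pseudocount of 10, with group means of at least 2 times the study's read minimum, or with z from the median and scaled MAD, Grm5 was TE up in LRRK2 KO, beside 6.47%, 6.38% and 7.60% of transcripts.

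Among receptors coupled to Gi/o, Chrm4 is the muscarinic receptor of spiny neurons of the direct pathway. Its footprinting reads were 2434 and 1771 in non-TG control and 2010 and 1339 in GS/DA LRRK2 TG. GS/DA LRRK2 TG was lower in both batches, by -0.28 and -0.40, and the groups overlapped. RNA-Seq reads of Chrm4 were 2550 and 623 in non-TG control and 2279 and 426 in GS/DA LRRK2 TG, again lower in both batches. With the library batch as a covariate, limma gave a footprinting change of -0.34 ± 0.13 (standard error; adjusted p = 1.00) and an RNA-Seq change of -0.35 ± 0.13 (adjusted p = 0.998). Without the covariate the standard error of each was 0.97.

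In the GS LRRK2 TG table, the Chrm4 footprinting mean of the control was 1528, and the libraries had 1031 and 1553. Only A lay below the control mean, and the change of the means was -0.24. RNA-Seq gave 1545 in the control mean and 2551 and 443 in GS LRRK2 TG, a change of -0.046. In the LRRK2 KO table Chrm4 had 191 and 428 footprinting reads in WT and 183 and 629 in LRRK2 KO. The batches differed in sign, at -0.056 and 0.55, and the change of the means was 0.39, the highest of the receptors. RNA-Seq reads of Chrm4 were 700 and 439 in WT and 879 and 450 in LRRK2 KO, higher in both batches, and the TE difference was 0.17.

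Cnr1, the CB1 cannabinoid receptor that inhibits release at terminals, had 4112 and 3623 footprinting reads in non-TG control and 3527 and 2331 in GS/DA LRRK2 TG. Both GS/DA LRRK2 TG libraries were below both control libraries, so the groups did not overlap, and the change of the means was -0.40. Cnr1 was 1 of 8 receptors with this order in footprinting, beside 12.2% of 8425 transcripts. RNA-Seq reads of Cnr1 were 960 and 2047 in non-TG control and 580 and 1634 in GS/DA LRRK2 TG, lower in both batches, and the groups overlapped, as they did for each of the 8 receptors in this assay (0 of 8 with both GS/DA LRRK2 TG libraries below both control libraries, beside 1.60% of 8495 transcripts). The limma fit with the batch covariate gave -0.43 ± 0.16 in footprinting (adjusted p = 1.00) and -0.52 ± 0.16 in RNA-Seq (adjusted p = 0.998), and without the covariate the standard error of each was 0.61. Since both assays were lower, the TE difference of Cnr1 in GS/DA LRRK2 TG was 0.040.

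In GS LRRK2 TG and its control, Cnr1 had a footprinting mean of 2755 in the control and 2009 and 3092 in the GS LRRK2 TG libraries. The control mean lay between the libraries, and the change of the means was -0.11. RNA-Seq gave 1057 in the control mean and 389 and 1249 in GS LRRK2 TG, a change of -0.37 and the lowest of the receptors in that table. Its TE difference was 0.26, with a z score of 0.95. In the LRRK2 KO table footprinting reads of Cnr1 were 648 and 1007 in WT and 747 and 1389 in LRRK2 KO. LRRK2 KO was higher in both batches, by 0.21 and 0.46, and the groups overlapped. RNA-Seq of Cnr1 gave 1357 and 929 in WT and 1104 and 1204 in LRRK2 KO, where the batches differed in sign. The TE difference was 0.35, from 0.37 in footprinting and 0.014 in RNA-Seq.

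Grm3, a group II glutamate receptor found in astrocytes and at terminals, had 1871 and 2055 footprinting reads in non-TG control and 1979 and 1781 in GS/DA LRRK2 TG. The batches differed in sign, and the change of -0.063 was the smallest in size among the receptors of that table. RNA-Seq reads of Grm3 were 1125 and 1761 in non-TG control and 930 and 1806 in GS/DA LRRK2 TG, again with opposite signs in the 2 batches. In the GS LRRK2 TG table footprinting was 1497 in the control mean and 1602 and 1548 in GS LRRK2 TG, both above the control mean. RNA-Seq of Grm3 was 1176 in the control mean and 731 and 1489 in GS LRRK2 TG, on both sides of it. Grm3 footprinting in the LRRK2 KO table was 248 and 515 in WT and 187 and 603 in LRRK2 KO. The sign again differed between batches, and the change of the means was 0.051. RNA-Seq reads of Grm3 were 795 and 518 in WT and 729 and 481 in LRRK2 KO, lower in both batches, by -0.12 and -0.11.

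Grm4, a group III receptor of presynaptic terminals that signals through Gi/o, had 725 and 524 footprinting reads in non-TG control and 693 and 479 in GS/DA LRRK2 TG. GS/DA LRRK2 TG was lower in both batches, and the groups overlapped. RNA-Seq reads of Grm4 were 2220 and 306 in non-TG control and 2490 and 331 in GS/DA LRRK2 TG, higher in both batches. The assays thus differed in sign, and the TE difference of -0.25 was the lowest of the receptors in that table, where TE down began at -0.34. In the GS LRRK2 TG table footprinting of Grm4 was 485 in the control mean and 374 and 534 in GS LRRK2 TG, and RNA-Seq was 1405 and then 2292 and 356. The changes of the means, -0.094 and -0.086, left a TE difference of -0.0085.

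In the LRRK2 KO table Grm4 had 53.3 and 148 footprinting reads in WT and 60.1 and 180 in LRRK2 KO, higher in both batches. RNA-Seq reads of Grm4 were 562 and 518 in WT and 880 and 578 in LRRK2 KO, and these groups did not overlap. Grm4 was 1 of 8 receptors with both LRRK2 KO libraries above both WT libraries in RNA-Seq, beside 7.02% of 9555 transcripts. Its change of 0.43 was the highest of the receptors in that assay, with 0.65 in batch A and 0.16 in batch B. The limma fit with the batch covariate gave 0.40 ± 0.19 (adjusted p = 0.914), and without it the standard error was 0.58. The TE difference of Grm4 was -0.18.

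Grm7, the group III receptor placed at active zones of terminals, had 1077 and 914 footprinting reads in non-TG control and 1043 and 850 in GS/DA LRRK2 TG. GS/DA LRRK2 TG was lower in both batches, by -0.046 and -0.10, and the groups overlapped. RNA-Seq of Grm7 gave 511 and 1237 in non-TG control and 494 and 1141 in GS/DA LRRK2 TG, also lower in both. Grm7 footprinting in the GS LRRK2 TG table was 782 in the control mean and 750 and 987 in GS LRRK2 TG, and RNA-Seq was 679 and then 398 and 979. The footprinting change of Grm7 in GS LRRK2 TG, 0.15, was the highest of the receptors in that table. Footprinting reads of Grm7 in the LRRK2 KO table were 127 and 266 in WT and 131 and 298 in LRRK2 KO. Its RNA-Seq reads were 324 and 287 in WT and 363 and 311 in LRRK2 KO, so both assays were higher in both batches. The TE difference of Grm7 in LRRK2 KO was -0.010.

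Gpr6, the receptor coupled to Gs, had 2132 and 1706 footprinting reads in non-TG control and 2020 and 1266 in GS/DA LRRK2 TG. The change was -0.078 in batch A and -0.43 in batch B, and the groups overlapped. RNA-Seq reads of Gpr6 were 2136 and 721 in non-TG control and 1986 and 455 in GS/DA LRRK2 TG, lower in both batches, and the TE difference was 0.0027. In the GS LRRK2 TG table the footprinting mean of the control was 1462 and the libraries had 866 and 1339. Gpr6 was the 1 receptor of 8 with both GS LRRK2 TG footprinting libraries below the control mean, beside 20.8% of 8567 transcripts, and the change of -0.41 was the lowest of the receptors in that table. RNA-Seq of Gpr6 was 1366 in the control mean and 1874 and 413 in GS LRRK2 TG, and the change of the means was -0.26. In the LRRK2 KO table footprinting reads of Gpr6 were 177 and 523 in WT and 235 and 541 in LRRK2 KO, higher in both batches. RNA-Seq reads of Gpr6 were 679 and 267 in WT and 614 and 299 in LRRK2 KO, with opposite signs in the 2 batches, and the TE difference was 0.20.

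**Figure D3:**
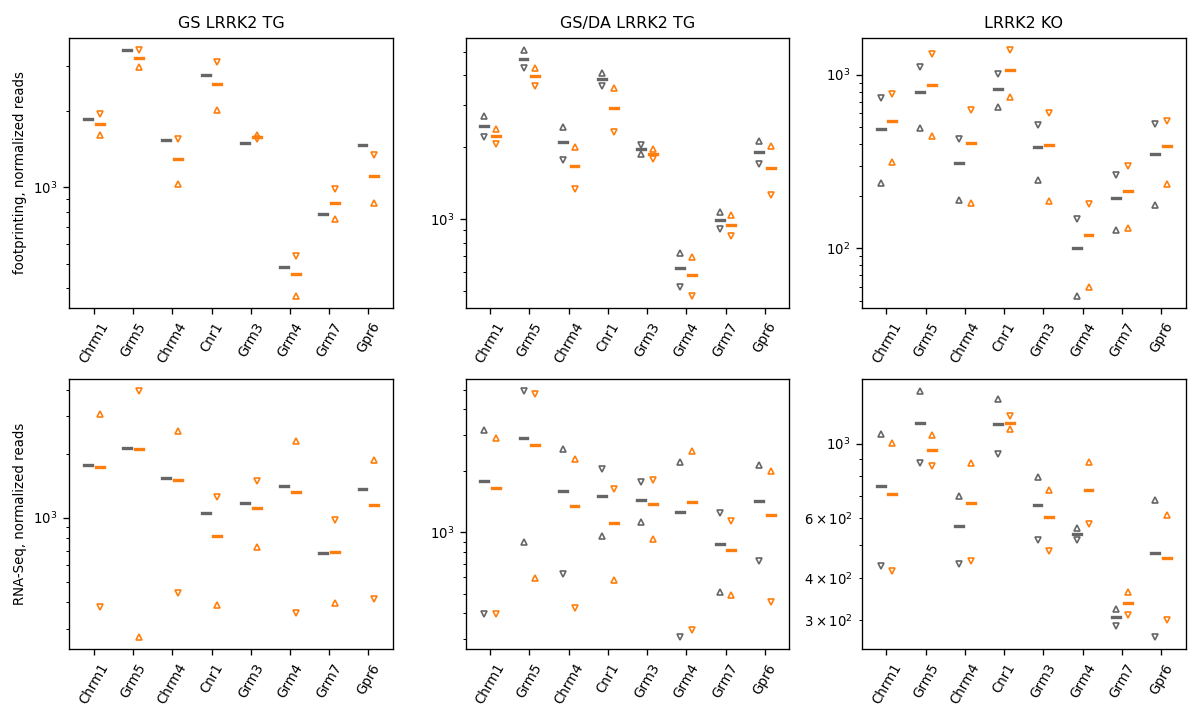
Normalized reads of each receptor in control (grey) and genotype (orange). Bars are group means, and triangles pointing up and down are libraries A and B where they were recovered.

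Taken as a list, the 8 receptors had a median footprinting change of -0.18 in GS/DA LRRK2 TG, against -0.0068 over all transcripts, and 8 of 8 were lower where 52.5% of transcripts were. Their median RNA-Seq change was -0.12, against 0.055, with 7 of 8 lower beside 35.3% of transcripts, and their median TE difference was -0.0098, against -0.055. Within library batches, 7 of 8 receptors were lower in footprinting in both batches, beside 32.3% of 8425 transcripts, and 6 of 8 were lower in RNA-Seq in both, beside 16.1% of 8495. Grm3 was the receptor left out in both assays, and Grm4 in RNA-Seq. The footprinting median was -0.13 within batch A and -0.23 within batch B, and the RNA-Seq median -0.15 and -0.084. Across batches these medians moved with single libraries: the footprinting median was -0.012 without GS/DA LRRK2 TG library B, -0.068 without non-TG control library A, -0.34 without non-TG control library B and -0.38 without GS/DA LRRK2 TG library A. The RNA-Seq median was 0.20 without non-TG control library A, -0.22 without non-TG control library B, -0.76 without GS/DA LRRK2 TG library A and -0.079 without GS/DA LRRK2 TG library B. With 1 library of either assay left out, the TE median ran from -0.34 to 0.52.

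In GS LRRK2 TG, with non-TG mice again the control, the receptors had medians of -0.10 in footprinting, -0.064 in RNA-Seq and -0.025 in TE. Over all transcripts these were 0.0034, -0.024 and 0.021. By count 6 of 8 receptors were lower in footprinting, 7 in RNA-Seq and 5 in TE, beside 48.8%, 55.7% and 45.2% of transcripts. The receptor median in footprinting was 0.058 without GS LRRK2 TG library A and -0.29 without library B, and in RNA-Seq -0.74 without library A and -0.11 without library B. In TE it was 0.52 without RNA-Seq library A, 0.13 without footprinting library A and -0.19 without footprinting library B.

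In LRRK2 KO the receptors had medians of 0.16 in footprinting, -0.018 in RNA-Seq and 0.18 in TE, against 0.016, 0.0075 and 0.017 over all transcripts. By count 0 of 8 receptors were lower in footprinting, 4 in RNA-Seq and 2 in TE, beside 45.6%, 48.7% and 47.0% of transcripts. Within library batches 5 of 8 were higher in footprinting in both, beside 24.3% of 9540 transcripts, and 3 of 8, namely Chrm4, Grm4 and Grm7, were higher in RNA-Seq in both, beside 24.5% of 9555. No receptor had both LRRK2 KO footprinting libraries above both WT libraries (0 of 8, beside 6.22% of transcripts). The receptors as a group differed more between libraries than between genotypes there: the median log2(A/B) of the 8 in footprinting was -1.17 in WT and -1.42 in LRRK2 KO, against 0.13 and 0.10 over all transcripts, and summed receptor footprints were 2172 and 4722 in WT and 2307 and 5719 in LRRK2 KO. The footprinting median was accordingly -0.32 without WT library A, 0.96 without WT library B, 0.69 without LRRK2 KO library A and -0.68 without LRRK2 KO library B, and 0.11 and 0.24 within batches A and B. The TE median of the receptors ran from -0.65 without LRRK2 KO footprinting library B to 0.83 without WT footprinting library B, and their RNA-Seq median from -0.38 without LRRK2 KO library A to 0.40 without WT library A.

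Markers of cell types that carry these receptors, or that lie near the striatum, are given beside these medians. In GS/DA LRRK2 TG 7 of 7 spiny neuron markers were lower in footprinting, with a median of -0.22, and their summed mean was 117039 in non-TG control and 98790 in GS/DA LRRK2 TG, with Ppp1r1b the most abundant. Their sums in single libraries were not available, because the reads of at least 1 of these markers were not resolved. Summed footprinting means of indirect pathway markers were 39980 in non-TG control and 29009 in GS/DA LRRK2 TG, with 4 of 5 lower. Penk made up most of both sums, with 34361 and 23835, and the median change of the 5 was -0.14. Summed footprinting means of direct pathway markers were 10819 and 9521 in the same groups, with 3 of 4 lower and a median of -0.16. Against this, 4 of 4 listed markers of cortical projection neurons were higher in footprinting, with a median of 1.18 and sums of 1243 and 1792 in non-TG control and 2765 and 4335 in GS/DA LRRK2 TG; Slc17a7 was the most abundant. The choroid plexus marker Ttr had 17056 and 1193 footprinting reads in non-TG control and 1137 and 5162 in GS/DA LRRK2 TG, high in A of the control and in B of the genotype. For astrocytes, which carry Grm3, 7 of 7 markers were higher in footprinting in GS/DA LRRK2 TG, with a median of 0.11 and summed means of 23652 and 25847 (Slc1a2 the most abundant), where Grm3 was at -0.063. The 3 listed microglia markers were all higher too, with a median of 0.15 and sums of 1856 and 2291 in non-TG control and 2169 and 2457 in GS/DA LRRK2 TG (Csf1r the most abundant), opposite in sign to the 8 receptors. In these bulk samples, fewer cells of a type and less RNA per cell cannot be told apart, and the part of cell composition in the receptor values was not tested.

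In GS LRRK2 TG 7 of 7 spiny neuron markers were lower in footprinting, with a median of -0.086 and sums of 88646 in the control mean and 68299 and 96437 in the libraries, so A was low for spiny neuron markers as it was for 7 of 8 receptors. Summed receptor footprints there were 13811 in the control mean and 11210 and 14462 in the libraries. Indirect pathway markers had a footprinting sum of 28970 in the control mean, of which Penk held 24552, and 19832 and 32011 in the libraries. For direct pathway markers the sums were 8112 in the control mean and 7729 and 8527 in the libraries. The 4 cortical projection markers had a footprinting sum of 1757 in the control mean and 2483 and 575 in GS LRRK2 TG, high in the library where most receptors were low. Ttr had 3944 footprinting reads in the control mean and 1037 and 408 in GS LRRK2 TG, so both libraries lay below the control mean, and its change of -2.45 stood beside the receptor median of -0.10. Of other markers, 6 of 6 for oligodendrocytes, opposite in sign to 6 of 8 receptors, were higher in footprinting in GS LRRK2 TG, with a median of 0.20 and sums of 51588 in the control mean and 55075 and 60606 in the libraries (Mbp the most abundant), as were 6 of 7 for astrocytes, with a median of 0.083. In LRRK2 KO 6 of 7 spiny neuron markers were higher in footprinting, with a median of 0.067 and sums of 25109 and 27740 in WT and 25646 and 29996 in LRRK2 KO. Markers of direct pathway spiny neurons, which carry Chrm4, had sums of 970 and 2170 in WT and 979 and 2698 in LRRK2 KO (Drd1a the most abundant), and those of the indirect pathway, where Gpr6 is found, 4061 and 12100 in WT and 3954 and 11865 in LRRK2 KO (Penk the most abundant). In that table B was thus above A by a factor of more than 2 for the markers of each pathway, as for the summed receptor footprints given above, and by less for the general list. The gap was not particular to spiny neurons and the receptors: astrocyte markers, a cell type of Grm3, had sums of 2819 and 6075 in WT and 2248 and 6852 in LRRK2 KO, and microglia markers 97.3 and 475 in WT and 96.5 and 581 in LRRK2 KO. Oligodendrocyte markers went the other way, with sums of 21799 and 15505 in WT and 19326 and 17842 in LRRK2 KO. Markers of oligodendrocyte precursors were split, with 831 and 1033 in WT and 934 and 751 in LRRK2 KO. Between genotypes, beside the receptor median of 0.16 in LRRK2 KO, 4 of 4 listed microglia markers were higher in footprinting (median 0.24), while 3 of 7 astrocyte markers (-0.12), 2 of 6 oligodendrocyte markers (-0.044) and 0 of 4 markers of oligodendrocyte precursors (-0.19) were higher. The part of these markers and of the single libraries in the receptor medians was not tested.

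Genes that make or remove the ligands of these receptors, and the genes they signal through, were listed by role. Shares of all transcripts to set beside their TE calls are the 8.01% up and 3.91% down in GS LRRK2 TG, 3.65% and 7.36% in GS/DA LRRK2 TG and 6.23% and 6.02% in LRRK2 KO given above for the receptors. For the opioid receptors Oprd1 and Oprk1, footprinting means were 309 and 427 in non-TG control and 312 and 514 in GS/DA LRRK2 TG. Footprinting means of the genes for their peptide ligands were 34361 and 23835 for Penk and 2332 and 2577 for Pdyn in the same groups.

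Of 6 endocannabinoid genes listed in the GS LRRK2 TG table, 1 was called, Faah, which degrades the Cnr1 ligand anandamide (TE down, -0.30), and none was called in the other tables. Of the 4 genes for acetylcholine, ligand of Chrm1 and Chrm4, none was called in the transgenic tables and Slc5a7, the choline transporter, was TE up in LRRK2 KO (0.52). Of the glutamate genes, Slc17a7 was up in GS LRRK2 TG and 2 of 7, Slc1a1 and Slc1a2, in LRRK2 KO. Slc17a7 is also on the list of cortical projection markers. Its means in non-TG control and GS LRRK2 TG were 995 and 841 in footprinting and 1496 and 792 in RNA-Seq, so both assays were lower. Of 8 genes downstream of receptors coupled to Gq, Itpr1, the calcium channel they open, was up in GS LRRK2 TG (0.42), Plcb4, a phospholipase, was down in GS/DA LRRK2 TG (-0.36), and none was called in LRRK2 KO. For Gi/o and Gs receptors, the G protein gene Gnai3 was up in GS LRRK2 TG (0.89) and down in GS/DA LRRK2 TG (-0.63), 1 of 9 in each, and in LRRK2 KO the channel genes Kcnj3 and Kcnj6 were up and Gnai2 was down, of 10. Of 21 regulators and scaffolds of these receptors, Grk5 and Rgs2 were up in GS LRRK2 TG, Grip1 was up in GS/DA LRRK2 TG, and in LRRK2 KO Rgs4 was up and Shank3 down. These calls rest on group means, as those of the receptors do. On the recovered libraries, limma gave a TE difference in GS/DA LRRK2 TG of 0.05 ± 1.97 for Plcb4, opposite in sign to its call, -0.17 ± 1.24 for Gnai3 and 0.19 ± 0.88 for Grip1 (standard error; adjusted p = 1.00 for each). Each gene called in LRRK2 KO likewise had an adjusted p of 1.00 for TE, and no test was run for GS LRRK2 TG.

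The transcripts nearest to 7 of the receptors over their 6 changes (footprinting and RNA-Seq in 3 tables) were found by Euclidean distance among 1646 transcripts with all means at 500 or more. The nearest lay at 0.082 for Grm3 (Cog7), 0.084 for Grm7 (Naca), 0.10 for Chrm1 (Mfn2), 0.18 for Grm5 (Epha4), 0.19 for Gpr6 (Egr3), 0.23 for Cnr1 (St8sia3) and 0.26 for Chrm4 (Dnajb5). The median distance over the searched transcripts was 0.35 for Grm3 and 0.86 for Cnr1, so the changes of Grm3 lay nearer than those of Cnr1 to the bulk of the searched transcripts. No such minimum was set for the receptors. Chrm1, Chrm4, Gpr6, Grm3 and Grm7 were below 500 in WT footprinting (381 for Grm3, beside 827 for Cnr1). Since the transgenic tables may share control libraries, these receptor distances are a description only.

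Because TE is set in part by the 5′ untranslated region and the start codon, these are shown for the receptors with no reading of their TE order. The predicted folding energy of the 5′UTR, a deposited score, was -415.59 kcal/mol for Cnr1, and 4.42% of transcripts of the transgenic tables had a lower one. Grm7 followed with -384.16 (5.31% lower), then Grm5 with -243.94 and Chrm1 with -219.1; Grm4 had -154.5, Grm3 -130.5, Chrm4 -86.3 and Gpr6 -71.42, beside a median of -91.15. In the annotation, the 5′UTR of 1 transcript per gene held 9 ATG triplets for Chrm1, 5 for Grm4, 3 for Grm3, 1 for Cnr1, 1 for Gpr6 and 0 for Chrm4 and Grm7. At least 1 was present in 5 of 7 receptors and in 50.9% of 9164 genes. The deposited score is the lowest over isoforms, so it need not describe the 5′UTR in which ATG triplets were counted. That 5′UTR had 287 bases for Grm7, with a score of -384.16, and 918 for Grm4, with -154.5. For Grm5 the annotation held no complete coding transcript with at least 9 bases of 5′UTR, so it has no ATG count and no window.

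The windows around the start codon of the 7 receptors, shown to compare the bases that flank it, were read 5′ to 3′ from GENCODE transcripts on NCBIM37 (the mm9 assembly of the labels), with the start codon in capitals.
Chrm1: ctggctgcaATGaacacc
Chrm4: gggttcagcATGgcgaac
Cnr1: actgaggttATGaagtcg
Gpr6: ctagcggcgATGaacgct
Grm3: ccaggattcATGaagatg
Grm4: ctttccgaaATGtccggg
Grm7: cggagcggcATGgtccag

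An A or G stood 3 bases before the start in 6 of 7 receptors and in 86.0% of genes, and Grm3, with a T, was the exception. A G just after the start was present in Chrm4 and Grm7, 2 of 7, and in 52.7% of genes, and both features in the same 2 receptors and in 45.4%.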

How the data were processed

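The 3 tables that the authors deposited hold, per transcript, the mean of a group over libraries of coding reads divided by DESeq 1.20 size factors (a signal, after CASAVA 1.8 and alignment to mm9 with TopHat2 2.0.11 and Bowtie2 2.2.2), and the lowest predicted folding energy of the 5′UTR, a deposited score in kcal/mol. Columns with the authors' own TE, TE differences and z scores were not used. Members and lists were chosen with earlier results of these data known; other genes are named only where they belong to a list fixed with them, are called in it, or are nearest in pattern. TE used a pseudocount of 0; z used the mean and SD over a table. Reads of single libraries were recovered as whole multiples of 2 steps, resolved for at least 98.5% of transcripts in 10 columns and in under 4% after a shift of the values; recovery was tested on simulated data. Summed coding reads per library were from 2862310 to 19153694. limma 3.58.1 (R 4.3.3) was fitted to log2(normalized reads + 10) over 4 groups, with Benjamini-Hochberg adjustment over all transcripts. Python 3.11.15, pandas 2.3.3, numpy 2.4.6 and scipy 1.17.1 did the rest. The alternatives were a pseudocount of 10 (1 for limma), group means of at least 2 times the study's read minimum, centred changes, z cutoffs of 1 and 2, z from the median and MAD, single batches, a batch covariate, voom weights and leaving out each library. By label, no table holds the 2 ventral midbrain samples. Results on a few other genes of the lists are not reported here.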

Additional observations from a re-analysis of the deposited data

How the results depend on the processing

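No paired analysis was possible because the recovered libraries and the deposited columns carry no replicate number by which to pair them. Batches A and B were instead matched by their values. In GS/DA LRRK2 TG and LRRK2 KO, the limma fit with the batch covariate and the changes within batches rest on that match. The libraries of the non-TG control in the GS LRRK2 TG table were not recovered, so limma, its alternatives and single batches were not run for GS LRRK2 TG.

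Receptor medians stayed within the spread between libraries (1 SD) with a pseudocount of 10, group means of at least 2 times the study's read minimum, centred changes and, in GS/DA LRRK2 TG and LRRK2 KO, single batches. That SD is taken over combinations of single libraries and is wide, at 1.00 for the LRRK2 KO footprinting median of 0.16. Staying within it therefore does not show that a median is stable. With a z cutoff of 1, 1 receptor was down in GS LRRK2 TG (12.9% of transcripts), 1 down in GS/DA LRRK2 TG (13.3%) and 2 up in LRRK2 KO (14.3%). In LRRK2 KO 1 receptor was up with a pseudocount of 10 (beside 6.47%), 1 with group means of at least 2 times the study's read minimum (6 of the 8 receptors remained; 6.38% of 3276 transcripts) and 1 with z from the median and MAD (7.60%). With footprinting batch A only, 1 receptor was up in GS/DA LRRK2 TG with RNA-Seq batch A (7.68% of transcripts) and 1 with RNA-Seq batch B (3.97%), and 1 was up in LRRK2 KO with RNA-Seq batch B (5.86%). The cause was not tested.

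Leaving out 1 library at a time, receptors TE up ranged from 0 to 3 in GS LRRK2 TG, from 0 to 4 in GS/DA LRRK2 TG and from 0 to 5 in LRRK2 KO, and receptors TE down from 0 to 2, 0 to 3 and 0 to 3. In GS LRRK2 TG the receptor median ranged from -0.29 to 0.058 in footprinting, from -0.74 to -0.064 in RNA-Seq and from -0.19 to 0.52 in TE. In GS/DA LRRK2 TG it ranged from -0.38 to -0.012, from -0.76 to 0.20 and from -0.34 to 0.52. In LRRK2 KO it ranged from -0.68 to 0.96, from -0.38 to 0.40 and from -0.65 to 0.83. All ranges in GS/DA LRRK2 TG and LRRK2 KO also hold the gap between batches, since 1 group then keeps a single batch.

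limma called 0 transcripts in each of the 6 tests, also with a pseudocount of 1, with group means of at least 2 times the study's read minimum, with voom weights and without each library, where the lone library of a group is assumed to vary like the others. With the library batch as a covariate it called 5 transcripts for footprinting and 4 for RNA-Seq in LRRK2 KO, none of them a receptor, and 0 for TE there and for all 3 in GS/DA LRRK2 TG, where 280, 390 and 34 transcripts had an unadjusted p under 0.05.

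Changes of single receptors stayed within the spread between libraries in 80 of 96 cases with a library left out in GS LRRK2 TG, 184 of 192 in GS/DA LRRK2 TG and 188 of 192 in LRRK2 KO, and under the other alternatives in 72 of 72, 164 of 168 and 158 of 162. Because the spread rests on the same few libraries, these counts do not show that a receptor's change is stable. Sequencing depth limits Grm4 most, with 53.3 normalized footprinting reads in WT library A. With 2 recovered libraries a group, where labels list 3 for some groups, footprinting and RNA-Seq libraries that could not be paired, a batch read from the values, and separate normalization of each table, the receptor values are differences between few libraries. A p above the threshold does not show that a receptor did not differ.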

Other observations

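The receptors' summed RNA-Seq reads were 13584 and 12014 in non-TG control libraries A and B of the GS/DA LRRK2 TG table, although single receptors differed between these libraries by up to 3.01 on the log2 scale (Chrm1 and Grm4 high in A, Grm5 high in B). The ventral midbrain samples, 1 of LRRK2 KO and 1 of WT, gave no receptor values, since no deposited table holds them.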
